A study of Caenorhabditis elegans with 12 samples.

Results

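The histone genes of Caenorhabditis elegans were followed in early embryos labelled as mutant for met-2, set-25 or both, which encode enzymes that methylate lysine 9 of histone H3. Members were the rows of the deposited gene count table whose WBcel235 symbol is "his-" followed by digits only, without his-17. They were 71 of 27904 genes: 1 gene of the linker histone H1, 17 of H2A, 17 of H2B, 20 of H3 and 16 of H4.

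Total RNA was depleted of ribosomal RNA and sequenced from embryos collected before the bean stage, grown at 20 °C after synchronization as L1 larvae. There were 4 genotypes with 3 libraries each: met-2(n4256), set-25(n5021), the double mutant met-2(n4256); set-25(n5021), and N2 (Bristol), the wild type. All the mutations are labelled as lying on chromosome III, and all 4 groups were labelled as early embryos. The labels speak of 2 independent biological replicates where 3 libraries are listed for each genotype, so the p-values may in part measure technical spread.

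Nucleosomes wrap DNA around a core of H2A, H2B, H3 and H4, and linker histone H1 sits where the DNA enters and leaves. Most animal core histone genes are transcribed in S phase and make mRNAs that end in a conserved stem-loop instead of a poly(A) tail, while variant histones such as H3.3 are made outside S phase and replace core histones in existing chromatin. Early embryos divide rapidly and draw on histones and histone mRNA loaded by the mother. MET-2 and SET-25 are the worm methyltransferases of H3 lysine 9, so histone H3 is also the substrate of these enzymes.

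The depth, as counts over all genes, was 23543963 to 25667207 in the libraries labelled met-2, 16929810 to 23924919 in set-25, 42943190 to 46833848 in the double mutant and 41033729 to 52683919 in N2. Depth, and any batch that goes with it, cannot be told apart from the groups labelled met-2 and set-25. Levels are given as CPM (counts scaled to a common total) scaled with TMM, a method that matches the bulk of genes between libraries. met-2 RNA stood at 215, 275 and 313 CPM in the libraries labelled met-2, at 305, 362 and 322 CPM in set-25, at 54.3, 51.1 and 52.0 CPM in the double mutant, and at 315, 330.2 and 320.2 CPM in N2. It was therefore low in the double mutant. In the libraries labelled met-2 it lay below N2 with no overlap, at most 313 against at least 315 CPM. The change there was not past the threshold (log2 change -0.27, SE 0.16, adjusted p = 0.0756), although both groups carry the same allele by label. For that reason these 3 libraries are called by their label throughout. set-25 RNA stood at 77.2, 109 and 115 CPM in the libraries labelled met-2, at 37.3, 40.1 and 37.6 CPM in set-25, at 57.5, 62.3 and 60.7 CPM in the double mutant, and at 181, 186 and 218 CPM in N2, so that each mutant lay below N2 with no overlap. In the libraries labelled met-2 the log2 change of set-25 RNA was -0.95, past the threshold. Whether the mutated bases lie in the counted parts of either gene was not tested.

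Of the 71 histone genes, 32 had no count in any of the 12 libraries, which is 45.1%, while 5432 of all genes in the table (19.5%) had none. By class, 10 of 17 H2A, 9 of 17 H2B, 6 of 20 H3 and 7 of 16 H4 genes were at 0. They lay on chromosomes II (10 of 14 members), IV (10 of 22) and V (12 of 26), and none of the 2, 3 and 4 members on chromosomes I, III and X was among them. Each of these 32 genes shared its symbol in the Ensembl annotation with at least 1 other locus. Of the 36 members that share a symbol, the 4 others were barely counted: his-11 had 33 counts over the 12 libraries, his-45 had 22, his-47 had 12 and his-58 had 3. The annotated loci of these 4 are coding sequence only, while the widths deposited for them were longer, at 537, 534, 586 and 503 bases. A longer width did not set them apart, since his-52 and his-54, both at 0 counts, had 426 bases against a coding length of 372. Each of the 35 members with a symbol of their own had counts. Histone genes are near-identical copies, and the sources used here do not say how the authors counted reads that fit several places, so a 0 is not evidence that a copy is silent, and the counts of the other members may hold or lack reads of their copies. Whether copy sharing set the zeros was not tested.

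**Figure D1:**
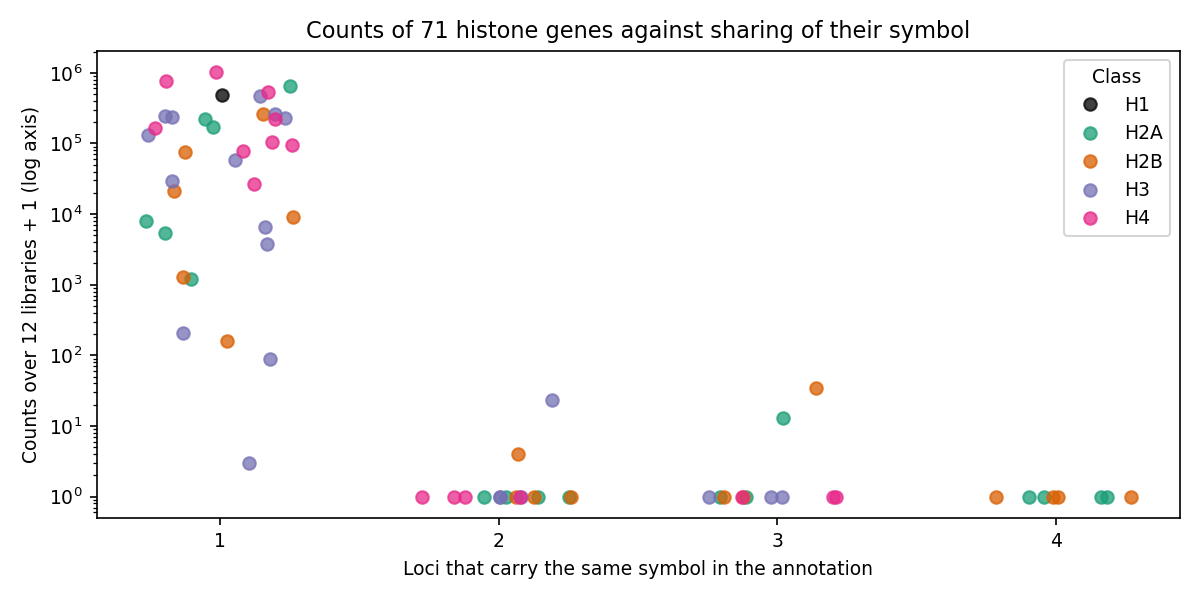
Counts summed over the 12 libraries (plus 1, log axis) of each of the 71 histone genes against the number of loci that carry its symbol in the annotation, coloured by histone class. The 35 genes with their own symbol were all counted, while 32 of the 36 genes that share one sit at 0 counts and the other 4 had at most 33.

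Histone genes took 0.807, 0.662 and 0.763% of the counts in the libraries labelled met-2, 1.65, 1.07 and 1.05% in set-25, 1.64, 1.87 and 1.73% in the double mutant, and 2.03, 2.29 and 2.09% in N2. The libraries labelled met-2 were thus the lowest, set-25 lay between them and N2, with its library a at the level of the double mutant, and N2 was the highest in each of its libraries. Summed over all members, the level was 6831 ± 685 CPM in the libraries labelled met-2, 11211 ± 2648 CPM in set-25, 19246 ± 1481 CPM in the double mutant and 23634 ± 1545 CPM in N2 (SD, n = 3 each). These sums were 28.9%, 47.4% and 81.4% of N2 in the libraries labelled met-2, in set-25 and in the double mutant. 5 genes held 52.5% of all histone counts: his-18, his-67 and his-60 of H4, his-3 of H2A and his-24, the H1 gene. In bulk RNA, fewer cells of a type and less histone RNA per cell cannot be told apart.

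Each class had a lower summed level in the libraries labelled met-2 and in set-25 than in N2. The summed level of H2B was 333 ± 28.02 CPM in the libraries labelled met-2, 470 ± 113 CPM in set-25, 1050 ± 242 CPM in the double mutant and 1477 ± 58.9 CPM in N2, which puts the libraries labelled met-2 at 22.5% and set-25 at 31.8% of N2. For H3 it was 1673 ± 162 CPM in the libraries labelled met-2, 2150 ± 238 CPM in set-25, 5069 ± 210 CPM in the double mutant and 6176 ± 154 CPM in N2. For H4 it was 2860 ± 635 CPM in the libraries labelled met-2, 5846 ± 1733 CPM in set-25, 8883 ± 1071 CPM in the double mutant and 10574 ± 2361 CPM in N2. For H2A it was 1402 ± 196 CPM in the libraries labelled met-2, 2269 ± 646 CPM in set-25, 2681 ± 86.2 CPM in the double mutant and 3670 ± 414 CPM in N2. In no class did a library labelled met-2 or of set-25 reach N2. In the libraries labelled met-2 the sum was 27.1% of that in N2 for H3, 27.0% for H4 and 38.2% for H2A. In set-25 it was 34.8% for H3, 55.3% for H4 and 61.8% for H2A, where library a held 7847 CPM of H4 against 4818 and 4874 CPM in libraries b and c. Differences between classes were not tested.

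**Figure D2:**
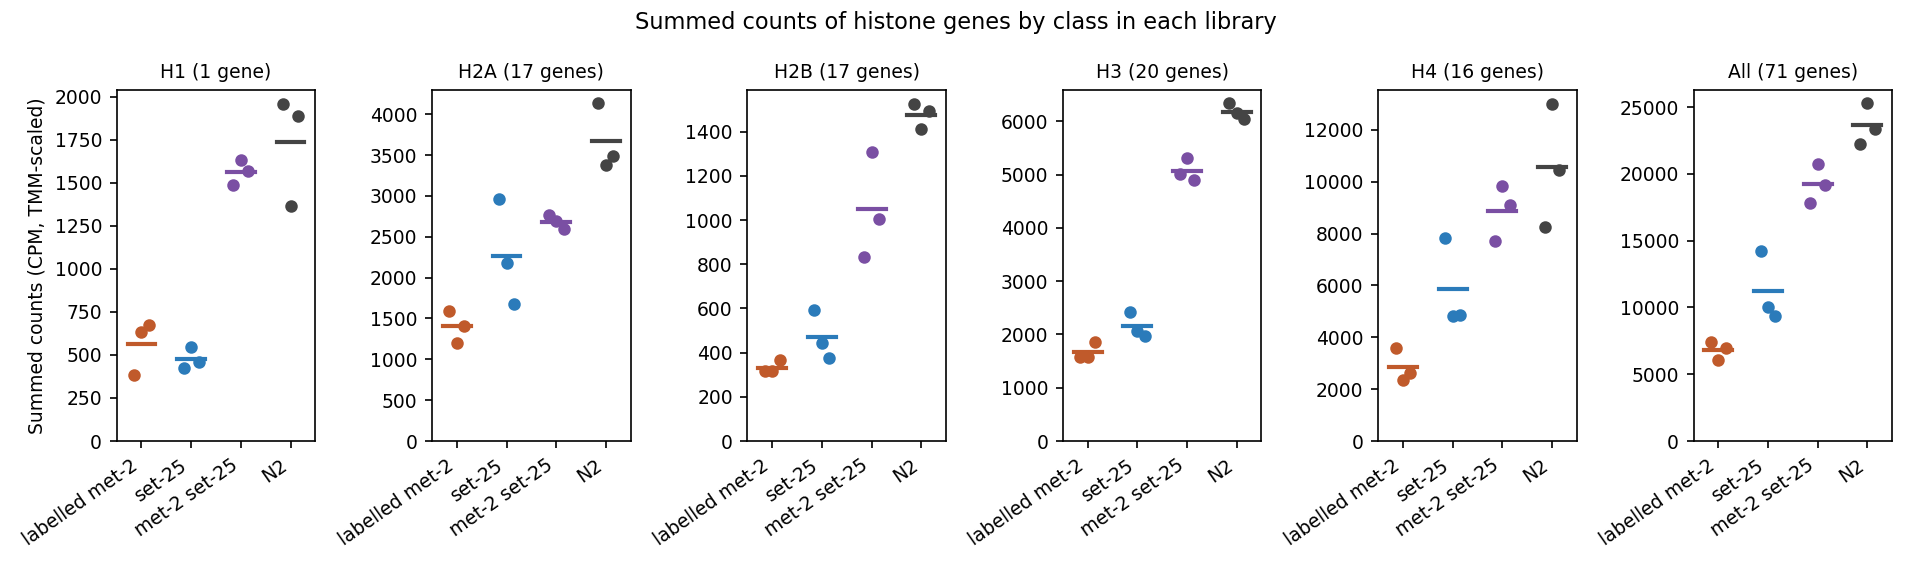
Summed TMM-scaled counts (CPM) of all members of each histone class, and of all 71, in each library (points) with the mean of the genotype (line). In each panel other than H1 the libraries labelled met-2 have the lowest mean, N2 has the highest in all 6, and library a is the highest of set-25 in the core classes, for example at 7847 CPM for H4.

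RNAs that mark embryo stage also differed between the groups. The summed level of 8 maternal and germline genes, such as pie-1 and mex-5, was 1032 to 1244 CPM in the libraries labelled met-2, 871 to 1253 CPM in set-25, 2152 to 2426 CPM in the double mutant and 2437 to 3153 CPM in N2. That of 8 early zygotic genes, such as end-1 and med-1, was 202 to 290.2 CPM in the libraries labelled met-2, 305 to 418 CPM in set-25, 333 to 355 CPM in the double mutant and 409.6 to 475 CPM in N2. That of 9 genes of differentiating cells, such as the muscle myosin unc-54, was 616 to 1214 CPM in the libraries labelled met-2, 169 to 738 CPM in set-25, 631 to 673 CPM in the double mutant and 117 to 283 CPM in N2. Maternal RNA, which marks the labelled early embryo, was thus present in all groups. Its sum and that of the early zygotic genes were below N2 in each library labelled met-2 and of the double mutant. For maternal RNA the highest library of the double mutant, at 2426 CPM, was just under the lowest of N2, at 2437 CPM. The libraries labelled met-2 reached at most 1244 CPM. In set-25 the maternal sum was below N2 in each library, and the early zygotic sum of library a lay within the range of N2. Most of that sum was pes-10, at 309 CPM in library a of set-25 and 238 to 284 CPM in N2. Each of the other early zygotic genes lay below every N2 library there, such as end-1 at 27.6 CPM against 37.6 to 39.7 CPM. The later RNAs were above N2 in each library labelled met-2 and of the double mutant. In set-25 they lay within the range of N2 in library a (169 CPM) and above it in b and c (484 and 738 CPM). By the test below, 7 maternal genes fell against N2 in the libraries labelled met-2, 7 in set-25 and 0 in the double mutant. In the same order 8, 7 and 0 early zygotic genes fell, and 8, 4 and 4 later genes rose. Of all tested genes 29.6%, 21.6% and 3.34% fell, and 35.2%, 24.2% and 8.7% rose. The summed levels of 3 adult genes and of 6 sperm genes, 1 of which was at 0, were each under 2 CPM in every library. The part of embryo stage in the histone differences was not tested.

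The test across all genes (edgeR's quasi-likelihood test, 14260 genes, adjusted p under 0.05) took in 34 histone genes. The other 5 with counts fell below its filter, namely his-11, his-45, his-47, his-58 and his-70. In the libraries labelled met-2, 28 of 34 histone genes fell against N2 and none rose, with a median log2 change of -1.67. Of all tested genes 29.6% fell and 35.2% rose in this comparison, with a median of 0.05. No tested member had a positive log2 change, so the 0 risen also holds at an unadjusted p under 0.05, and DESeq2 called 0 higher and 29 lower. In set-25, 22 of 34 fell and 1 rose, with a median of -1.05, where 21.6% of all tested genes fell and 24.2% rose, with a median of 0.07. In the double mutant 4 of 34 fell and none rose, with a median of -0.44, where 3.34% of all tested genes fell and 8.7% rose, with a median of -0.01. There too, 0 rose at an unadjusted p under 0.05 or with DESeq2. At an unadjusted p under 0.05, 14 of 34 were lower in the double mutant, and DESeq2 called 3 lower. With the double mutant and N2 alone in the fit, 19 of 33 members were lower, where 22.8% of all tested genes were. The 3 comparisons with N2 share its libraries. The shares of all tested genes in the fit of all libraries stand beside the counts by class and by exon number given below.

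**Figure D3:**
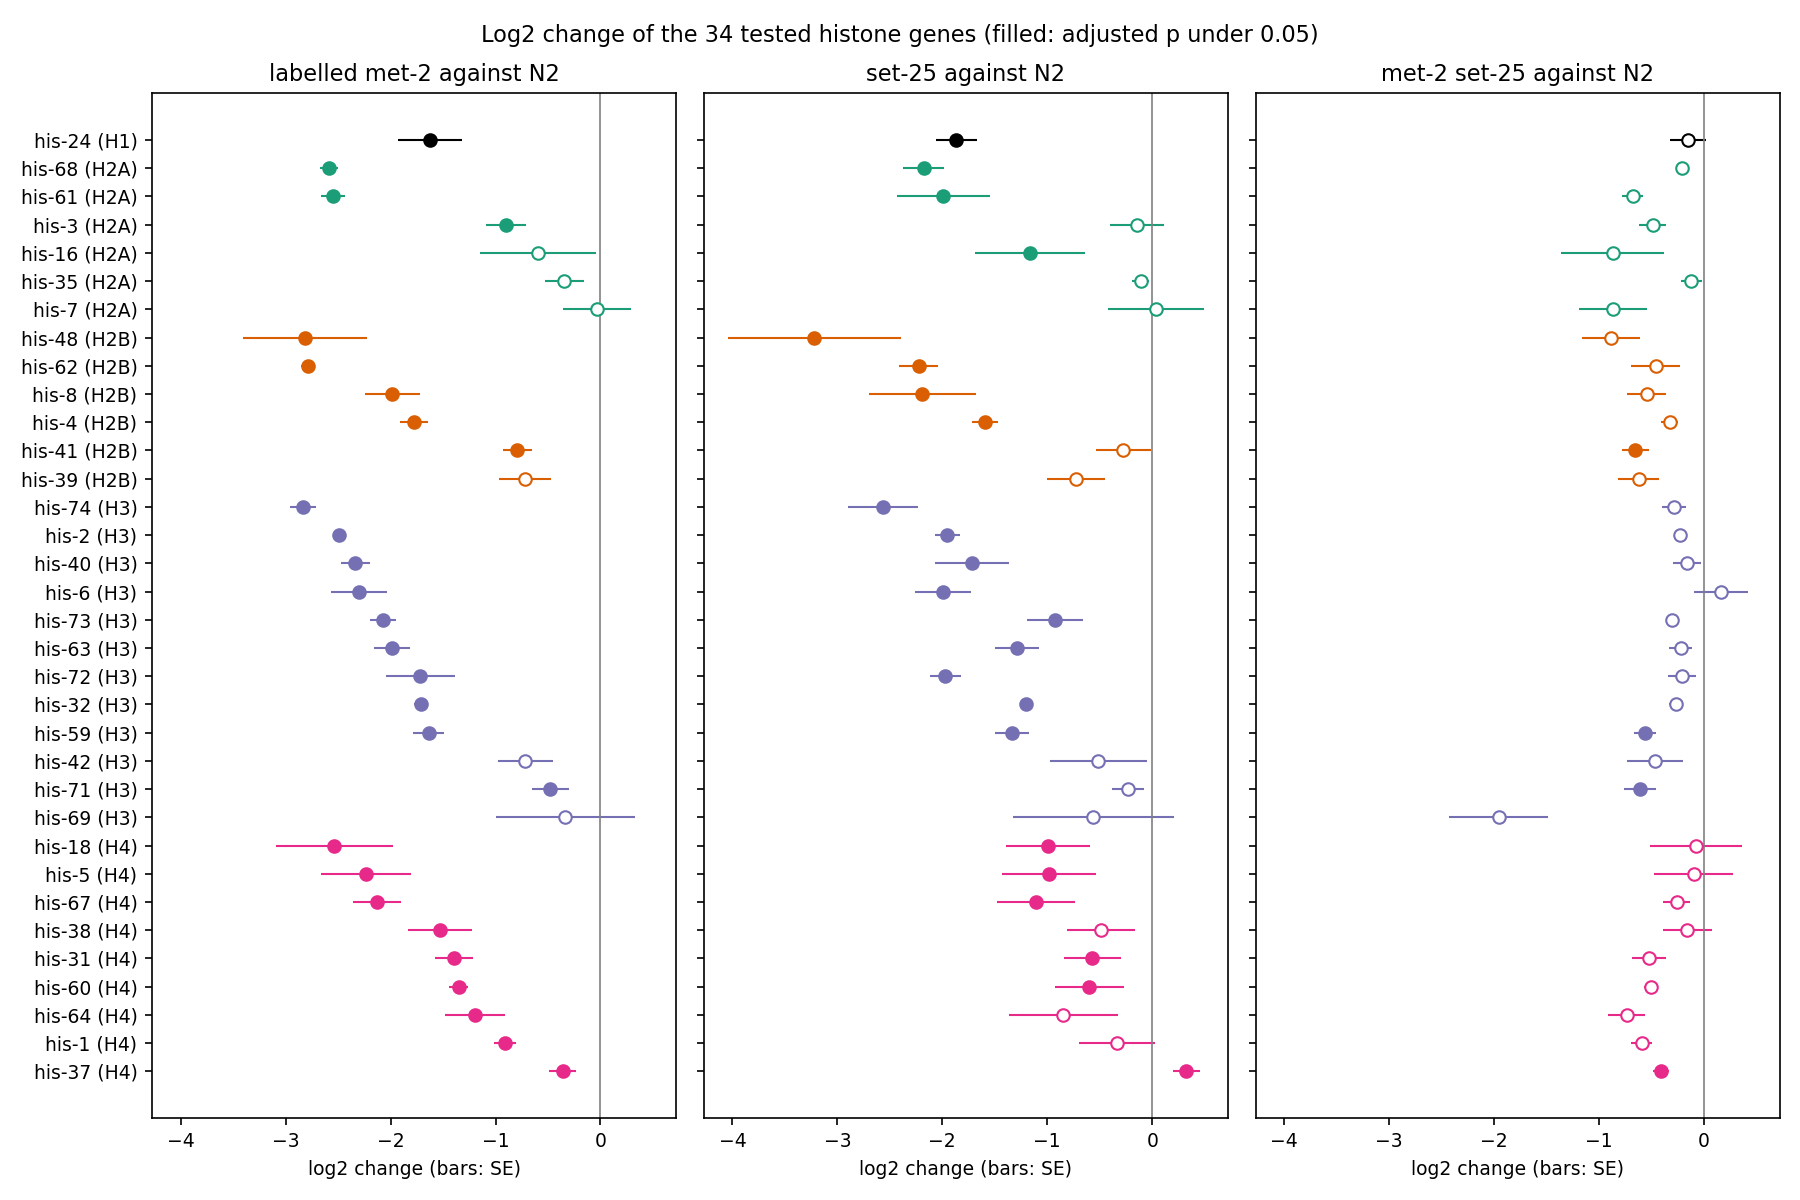
Log2 change of each of the 34 tested histone genes against N2 (points, with bars for the SE), ordered by class, in 3 panels: labelled met-2, set-25 and met-2 set-25. Filled points passed adjusted p under 0.05: 28, 23 and 4 of the 34 in these comparisons, of which only his-37 in set-25 lay above 0.

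The 9 tested H4 genes all fell in the libraries labelled met-2, with log2 changes of -2.54 to -0.36, while 5 fell and 1 rose in set-25 and 1 fell in the double mutant. his-18 (K06C4.10, chromosome V, 8898228 to 8898539, forward strand, 1 exon) had the highest level per kilobase of all members in N2. It stood at 1012, 404 and 456 CPM in the libraries labelled met-2, at 1960, 1457 and 2034 CPM in set-25, at 2462, 4181 and 3674 CPM in the double mutant and at 2130, 5199 and 3534 CPM in N2. The libraries labelled met-2 lay below all others, set-25 lay just under the lowest N2 library, and the double mutant overlapped N2. For his-18 the log2 change in the libraries labelled met-2 was -2.54 (SE 0.56, adjusted p = 0.000166), that in set-25 -0.99 (SE 0.40, adjusted p = 0.045) and that in the double mutant -0.07 (SE 0.44, adjusted p = 0.902). In set-25 this call was lost without library b of set-25 (log2 change -0.70, adjusted p = 0.201) and in most other alternatives.

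his-67 (T23D8.5, chromosome I, 9988452 to 9988763, reverse strand) stood at 813, 528 and 562 CPM in the libraries labelled met-2, at 1955, 997 and 905 CPM in set-25, at 2218, 2317 and 2401 CPM in the double mutant and at 2314, 3030 and 2967 CPM in N2. Each library labelled met-2 and each of set-25 lay below N2, and the double mutant overlapped it. his-67 fell by 2.13 on the log2 scale in the libraries labelled met-2 (SE 0.23, adjusted p = 5.27e-05) and by 1.11 in set-25 (SE 0.37, adjusted p = 0.00521), a call lost without library b of set-25 (log2 change -0.76, adjusted p = 0.064). his-60 (F55G1.11, chromosome IV, 7487681 to 7487992, reverse strand) stood at 790.3, 652 and 723 CPM in the libraries labelled met-2, at 1772, 1048 and 829 CPM in set-25, at 1262, 1381 and 1242 CPM in the double mutant and at 1778, 1958 and 1787 CPM in N2. Here library a of set-25 nearly reached N2 and the other libraries did not. For his-60 the log2 change in the libraries labelled met-2 was -1.35 (SE 0.09, adjusted p = 0.00023), and that in set-25 was -0.60 (SE 0.33, adjusted p = 0.0386). In set-25 it was -0.18 (adjusted p = 0.49) without library c of set-25.

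his-37 (C50F4.7, chromosome V, 9547105 to 9547607, forward strand) is the H4 gene with an intron, and its levels were ordered otherwise. It stood at 63.0, 49.7 and 58.5 CPM in the libraries labelled met-2, at 104, 80.2 and 91.2 CPM in set-25, at 56.1, 53.7 and 55.6 CPM in the double mutant and at 66.1, 75.7 and 78.2 CPM in N2. Each set-25 library lay above N2, and each library of the other mutants below it. For his-37 the log2 change in the libraries labelled met-2 was -0.36 (SE 0.13, adjusted p = 0.0189), that in set-25 0.33 (SE 0.13, adjusted p = 0.042) and that in the double mutant -0.41 (SE 0.08, adjusted p = 0.0452). All 3 calls lie near the threshold and were lost when single libraries were left out, for example library a of set-25 (log2 change 0.22, adjusted p = 0.122) and library b of the libraries labelled met-2 (-0.25, adjusted p = 0.178).

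Of the 12 tested H3 genes, 10 fell in the libraries labelled met-2, 9 in set-25 and 2, his-59 and his-71, in the double mutant. Their median log2 changes were -1.85, -1.31 and -0.28 in these groups. The core H3 gene his-59 (F55G1.2, chromosome IV, 7488249 to 7488659, forward strand) stood at 534, 512 and 666 CPM in the libraries labelled met-2, at 805, 724 and 579 CPM in set-25, at 1193, 1288 and 1123 CPM in the double mutant and at 1990, 1624 and 1708 CPM in N2. No mutant library reached N2. For his-59 the log2 change in the libraries labelled met-2 was -1.64 (SE 0.15, adjusted p = 7.98e-06), that in set-25 -1.34 (SE 0.17, adjusted p = 3.7e-05) and that in the double mutant -0.56 (SE 0.11, adjusted p = 0.0314).

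his-32 (F17E9.10, chromosome IV, 8334305 to 8334715, forward strand), another core H3 gene, varied little between libraries of a genotype. It stood at 274, 281 and 303 CPM in the libraries labelled met-2, at 413, 411 and 401 CPM in set-25, at 728, 827 and 786 CPM in the double mutant and at 887, 944 and 982 CPM in N2. The 4 groups did not overlap, in that order. For his-32 the log2 change in the libraries labelled met-2 was -1.71 (SE 0.06, adjusted p = 4.42e-07), that in set-25 was -1.20 (SE 0.04, adjusted p = 3.11e-06), and that in the double mutant, -0.26 (SE 0.07, adjusted p = 0.0729), missed the threshold. his-63, the third of the core H3 genes by CPM, averaged 223 ± 39.8 CPM in the libraries labelled met-2, 362 ± 88.1 CPM in set-25, 759 ± 66.4 CPM in the double mutant and 886 ± 88.4 CPM in N2, and fell in the libraries labelled met-2 and in set-25.

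The genes of the replication-independent variant H3.3 and its relatives went different ways. his-72 (Y49E10.6, chromosome III, 12367475 to 12369050, reverse strand, 2 exons), an H3.3 gene, stood at 170, 287 and 343 CPM in the libraries labelled met-2, at 245, 221 and 206 CPM in set-25, at 739, 787 and 748 CPM in the double mutant and at 995, 733 and 905 CPM in N2. Both the libraries labelled met-2 and set-25 lay far below the other groups, and the double mutant lay within the range of N2. For his-72 the log2 change in the libraries labelled met-2 was -1.72 (SE 0.33, adjusted p = 3.97e-05), that in set-25 -1.97 (SE 0.15, adjusted p = 2.74e-05) and that in the double mutant -0.21 (SE 0.13, adjusted p = 0.476).

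his-74 (W05B10.1, chromosome V, 12659704 to 12660330, reverse strand, 2 exons), which encodes a further H3.3-like protein, had the lowest log2 change of the tested members in the libraries labelled met-2. Its level was 14.98, 16.4 and 18.5 CPM in the libraries labelled met-2, at 29.0, 17.6 and 13.5 CPM in set-25, at 88.4, 105 and 97.9 CPM in the double mutant and at 124, 105 and 127 CPM in N2. Again the libraries labelled met-2 and set-25 were low and the double mutant touched the range of N2. For his-74 the log2 change in the libraries labelled met-2 was -2.84 (SE 0.12, adjusted p = 3.84e-06), that in set-25 -2.56 (SE 0.33, adjusted p = 7.32e-06) and that in the double mutant -0.29 (SE 0.11, adjusted p = 0.345).

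Another H3.3 gene, his-71 (F45E1.6, chromosome X, 7981382 to 7982070, reverse strand, 3 exons), moved less than his-72 and his-74 in the libraries labelled met-2 and in set-25. It stood at 14.0, 17.3 and 12.9 CPM in the libraries labelled met-2, at 16.4, 16.3 and 19.7 CPM in set-25, at 13.0, 15.01 and 12.2 CPM in the double mutant and at 23.2, 21.0 and 17.3 CPM in N2. The double mutant had the lowest mean, and it alone had no library in the range of N2. For his-71 the log2 change in the libraries labelled met-2 was -0.48 (SE 0.18, adjusted p = 0.0248), that in set-25 -0.23 (SE 0.15, adjusted p = 0.281) and that in the double mutant -0.61 (SE 0.15, adjusted p = 0.0372). Both calls lie near the threshold. The one in the libraries labelled met-2 was lost with library totals in place of TMM (-0.21, adjusted p = 0.319), with thinning, and without library a or c of the libraries labelled met-2 or library a or b of N2. The one in the double mutant was lost with thinning, with no filter and whichever library was left out.

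The remaining H3 variants were scarce. his-73, whose annotated coding sequence is 141 bases where most H3 genes have 411, averaged 3.27 ± 0.468 CPM in the libraries labelled met-2, 7.22 ± 2.19 CPM in set-25, 11.1 ± 0.300 CPM in the double mutant and 13.7 ± 0.281 CPM in N2, and fell in the libraries labelled met-2 and in set-25 (log2 changes -2.07 and -0.93). his-69 had 87 counts over the 12 libraries and passed in no comparison. his-70 had 2 counts, 1 in a library labelled met-2 and 1 in an N2 library, and was not tested.

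**Figure D4:**
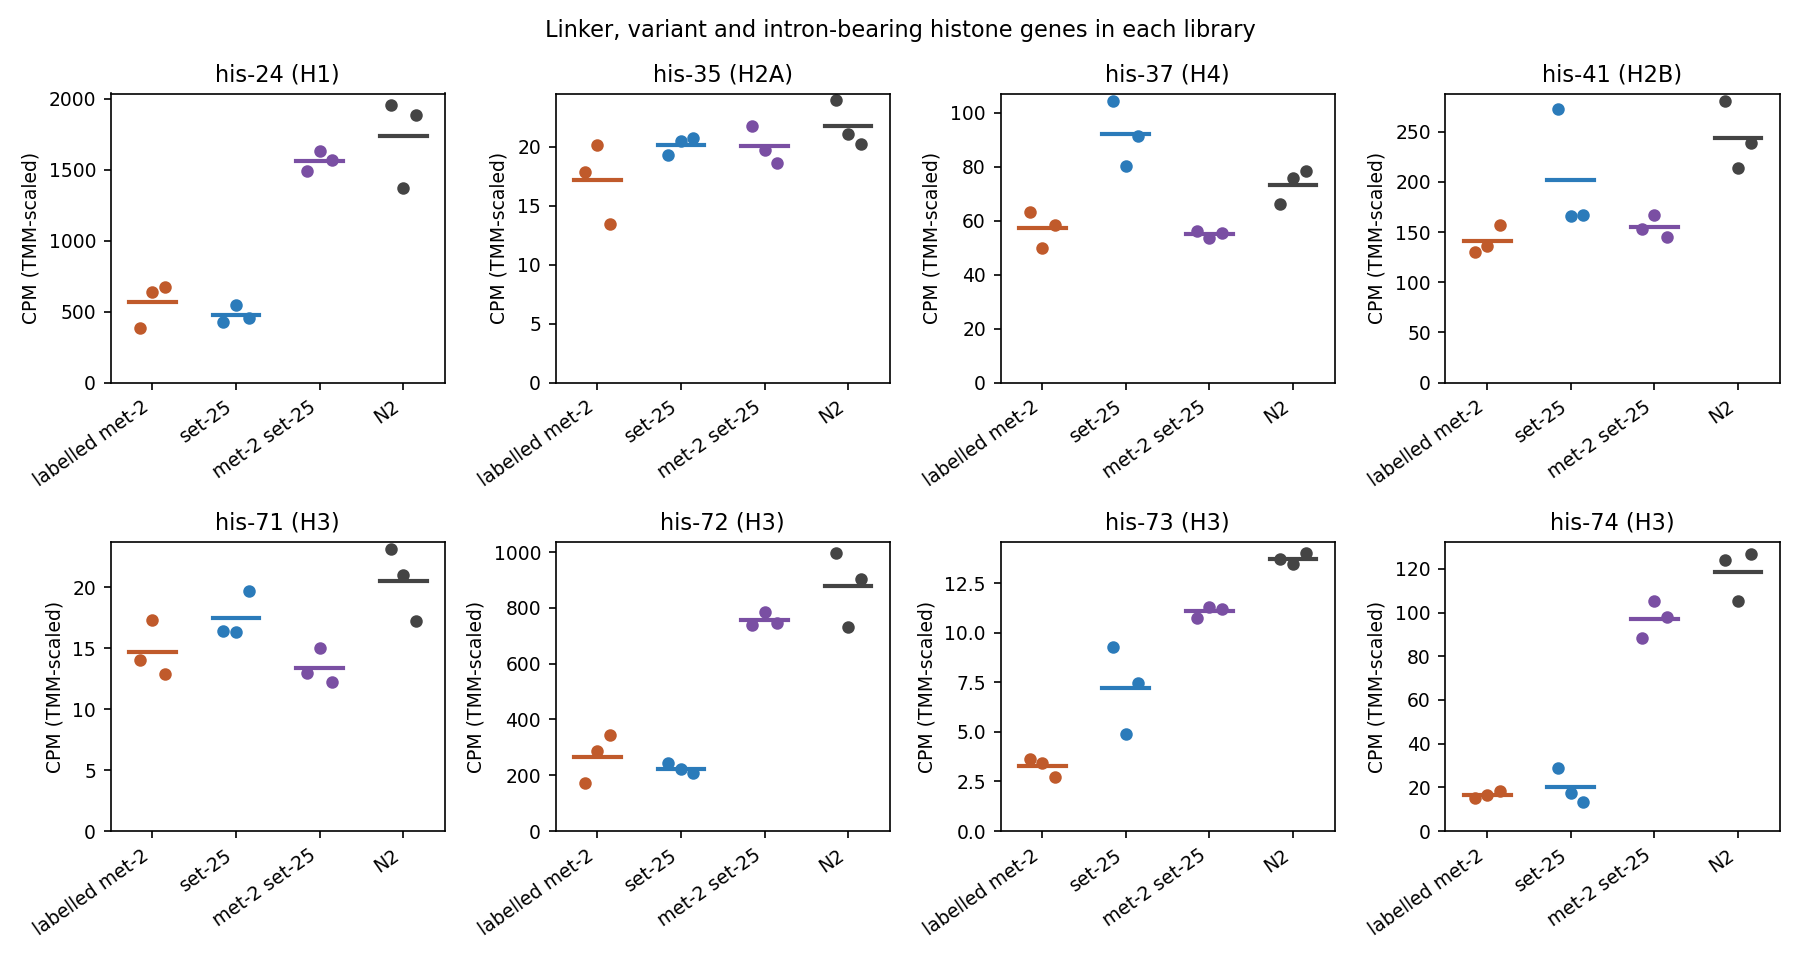
TMM-scaled level (CPM) in each library (points) and genotype mean (line) of the H1 gene, of the H3 variants his-71 to his-74 and of the intron-bearing his-35, his-37 and his-41. his-24, his-72 and his-74 are low in the libraries labelled met-2 and in set-25. On average they stand at 564, 267 and 16.6 CPM in the libraries labelled met-2 against 1736, 878 and 119 CPM in N2. his-35 and his-71 differ less between the 4 genotypes.

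H2A genes differed among themselves. 3 of 6 tested H2A genes fell in the libraries labelled met-2, 3 in set-25 and none in the double mutant, where 3 had an unadjusted p under 0.05 and DESeq2 called 0. his-3 (T10C6.12, chromosome V, 16040808 to 16041191, forward strand), the H2A gene with the most counts, stood at 1298, 913 and 1094 CPM in the libraries labelled met-2, at 2417, 1767 and 1403 CPM in set-25, at 1498, 1495 and 1404 CPM in the double mutant and at 2429, 1879 and 1869 CPM in N2. Library a of set-25 was as high as N2, and the libraries labelled met-2 were all below the other groups. For his-3 the log2 change in the libraries labelled met-2 was -0.90 (SE 0.19, adjusted p = 0.00153), that in set-25 -0.15 (SE 0.26, adjusted p = 0.564) and that in the double mutant -0.49 (SE 0.13, adjusted p = 0.102).

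his-68 (T23D8.6, chromosome I, 9989132 to 9989515, forward strand) stood at 148, 125 and 148 CPM in the libraries labelled met-2, at 218, 198 and 142 CPM in set-25, at 750.0, 719 and 720.3 CPM in the double mutant and at 846, 800.3 and 878 CPM in N2. The libraries labelled met-2 and set-25 lay far below the other groups, and the double mutant just below N2. For his-68 the log2 change in the libraries labelled met-2 was -2.59 (SE 0.09, adjusted p = 5.31e-07), that in set-25 -2.18 (SE 0.19, adjusted p = 1.24e-06) and that in the double mutant -0.20 (SE 0.04, adjusted p = 0.312). his-61 had log2 changes of -2.55 (SE 0.11) and -1.99 (SE 0.44) in the libraries labelled met-2 and in set-25, and fell in both.

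his-35 (C50F4.13, chromosome V, 9544659 to 9545288, reverse strand, 2 exons) is the H2A gene with an intron. It stood at 17.9, 20.1 and 13.5 CPM in the libraries labelled met-2, at 19.3, 20.5 and 20.8 CPM in set-25, at 21.7, 19.7 and 18.6 CPM in the double mutant and at 23.98, 21.1 and 20.2 CPM in N2. The mutants other than the libraries labelled met-2 overlapped N2, and no comparison with N2 passed the threshold. For his-35 the log2 change in the libraries labelled met-2 was -0.34 (SE 0.19, adjusted p = 0.0684), that in set-25 -0.11 (SE 0.08, adjusted p = 0.584) and that in the double mutant -0.12 (SE 0.10, adjusted p = 0.596).

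Of 6 tested H2B genes, 5 fell in the libraries labelled met-2, 4 in set-25 and 1, his-41, in the double mutant. his-62 (F55G1.3, chromosome IV, 7486545 to 7486916, forward strand), the H2B gene with the most counts, stood at 163, 147 and 172 CPM in the libraries labelled met-2, at 284, 242 and 183 CPM in set-25, at 595, 1043 and 775 CPM in the double mutant and at 1105, 1087 and 1124 CPM in N2. Levels in the libraries labelled met-2 and in set-25 lay well below the other groups, while the double mutant spread widely below N2. For his-62 the log2 change in the libraries labelled met-2 was -2.78 (SE 0.07, adjusted p = 2.09e-06), that in set-25 -2.23 (SE 0.19, adjusted p = 8.47e-06) and that in the double mutant -0.46 (SE 0.23, adjusted p = 0.117). his-48, which had the lowest log2 change of any member in set-25, averaged 6.04 ± 3.06 CPM in the libraries labelled met-2, 4.52 ± 2.97 CPM in set-25, 23.1 ± 3.69 CPM in the double mutant and 42.7 ± 11.2 CPM in N2, with log2 changes of -2.82 in the libraries labelled met-2 and -3.22 in set-25, both past the threshold. his-4 averaged 23.1 ± 3.35 CPM in the libraries labelled met-2, 26.2 ± 3.49 CPM in set-25, 63.0 ± 5.35 CPM in the double mutant and 79.0 ± 3.54 CPM in N2 and fell in the libraries labelled met-2 and in set-25.

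his-41 (C50F4.5, chromosome V, 9545536 to 9546264, forward strand, 2 exons), the H2B gene with an intron, stood at 130.4, 136 and 157 CPM in the libraries labelled met-2, at 273, 166 and 167 CPM in set-25, at 153, 168 and 145 CPM in the double mutant and at 281, 214 and 238 CPM in N2. The libraries labelled met-2 and the double mutant lay below N2, and library a of set-25 lay within its range. For his-41 the log2 change in the libraries labelled met-2 was -0.79 (SE 0.14, adjusted p = 0.00213), that in set-25 -0.27 (SE 0.26, adjusted p = 0.228) and that in the double mutant -0.65 (SE 0.13, adjusted p = 0.0373). Without library a, set-25 fell by 0.56 (adjusted p = 0.00186).

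The linker histone gene his-24 (M163.3, chromosome X, 14490094 to 14491119, forward strand, 2 exons) stood at 383, 635 and 675 CPM in the libraries labelled met-2, at 425, 544 and 458 CPM in set-25, at 1488, 1631 and 1569 CPM in the double mutant and at 1957, 1368 and 1885 CPM in N2. The libraries labelled met-2 and set-25 overlapped each other and lay below every other library, and the double mutant lay within the range of N2. For his-24 the log2 change in the libraries labelled met-2 was -1.62 (SE 0.31, adjusted p = 4.93e-05), that in set-25 -1.87 (SE 0.20, adjusted p = 3.6e-05) and that in the double mutant -0.15 (SE 0.17, adjusted p = 0.609).

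Introns, which the rule did not use, set apart 7 members, and these differed among themselves. Of the 7 tested members with several exons, 6 fell in the libraries labelled met-2, with a median log2 change of -0.79, against 22 of 27 with a single exon and a median of -1.78. In set-25, 3 of 7 fell and 1 rose among genes with several exons (median -0.27), against 19 of 27 among those with a single exon (median -1.11). his-35, his-37 and his-41, which lie side by side on chromosome V, and his-71 had log2 changes between -0.79 and 0.33 in the libraries labelled met-2 and in set-25, while those of his-24, his-72 and his-74 lay between -2.84 and -1.62. No test of this difference was made, since the members were grouped with their values known.

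The mutants were also set against each other, which asks whether the double mutant carried the changes of the groups labelled with 1 mutation. Against the libraries labelled met-2, 22 of 34 histone genes were higher in the double mutant and 1, his-7, was lower, with a median log2 difference of 1.44, where 23.1% of all tested genes were higher and 30.8% lower. Against set-25, 18 were higher and 2, his-7 and his-37, were lower in the double mutant, with a median of 0.81, where 20.5% of all tested genes were higher and 17.7% lower. The median over all tested genes was -0.12 and -0.10 in these comparisons, and it moved to -0.38 and -0.40 with library totals, under which the members' medians were 1.18 and 0.51. The libraries labelled met-2 had 12 genes below set-25 and none above, where 9.28% of all tested genes were below and 15.5% above. At an unadjusted p under 0.05 none was above either, and DESeq2 called 0. When only these 6 libraries entered the fit, no histone gene and 0.0224% of all tested genes were called lower, and without library b of the libraries labelled met-2 none was called lower.

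his-7 (F45F2.4, chromosome V, 8533379 to 8533762, forward strand), an H2A gene outside the naming rule and chosen here after its values were seen, stood at 12.9, 15.2 and 17.2 CPM in the libraries labelled met-2, at 23.7, 13.1 and 10.7 CPM in set-25, at 9.21, 8.92 and 7.29 CPM in the double mutant and at 22.5, 11.8 and 12.1 CPM in N2. The double mutant lay below all other libraries. Its log2 difference was -0.84 (SE 0.16, adjusted p = 0.038) from the libraries labelled met-2, -0.90 (SE 0.36, adjusted p = 0.0372) from set-25 and -0.87 (SE 0.32, adjusted p = 0.0785) from N2.

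By the labels, the interaction asks whether the loss of set-25 acts differently with and without the met-2 mutation. It is the log2 difference between the double mutant and the libraries labelled met-2, minus that between set-25 and N2. It passed the threshold in 23 of 34 histone genes, all positive, with a median of 2.67, while 64.0% of all tested genes were called, 27.7% with a positive and 36.2% with a negative value, and the median over all was -0.19. With library totals the members' median was 2.10 and that of all tested genes -0.76. Positive values were not particular to the members. Of 8 maternal genes 7 were called positive (median 2.86), and of 8 early zygotic genes 7 (median 1.69). Of 8 tested later genes 4 were called negative and 0 positive (median -1.79). Of 10 tested histone genes that are not members, such as htz-1, 9 were called positive (median 2.74). his-48 (5.15, SE 0.99), his-74 (5.11, SE 0.35), his-68 (4.56, SE 0.21) and his-62 (4.55, SE 0.31) were among the members with the highest values. The interaction of his-41 was 0.41 (SE 0.28, adjusted p = 0.169), that of his-71 was 0.10 (SE 0.22, adjusted p = 0.739), that of his-35 was 0.33 (SE 0.20, adjusted p = 0.198) and that of his-37 was -0.38 (SE 0.17, adjusted p = 0.0691), so these missed the threshold. Since the RNA of met-2 in the libraries labelled met-2 was not past the threshold, the sign of this term rests on their label. This term also sets the double mutant and N2 against the libraries labelled met-2 and set-25. Those libraries were shallower and held less maternal RNA. Depth, batch and embryo stage therefore cannot be told apart from this term.

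Worm core histone genes often lie head to head with a neighbour of another class and share the stretch of DNA between their starts. Both members of 11 such pairs were tested, and the ratio of their counts was formed within each library, where the library's scaling drops out. The ratio of his-2 to his-1 (H3 to H4, chromosome V) was 0.548, 0.588 and 0.517 in the libraries labelled met-2, 0.393, 0.487 and 0.939 in set-25, 1.81, 2.34 and 2.24 in the double mutant and 1.51, 1.63 and 1.82 in N2. In the libraries labelled met-2 and in set-25 his-2 was thus the scarcer partner by counts, and in the double mutant and N2 the more abundant one. The ratio of his-8 to his-7 (H2B to H2A) was 0.0758, 0.106 and 0.0807 in the libraries labelled met-2, 0.0749, 0.0841 and 0.0490 in set-25, 0.372, 0.451 and 0.463 in the double mutant and 0.287, 0.366 and 0.415 in N2, and both groups labelled with 1 mutation again lay below the others. The ratio of his-62 to his-61 overlapped N2 in each mutant. Across the 11 pairs, the ratio lay below all N2 libraries in 5 pairs in the libraries labelled met-2, in 8 in set-25 and in 1 in the double mutant, in which it lay above them in 1. Of 1777 other divergent neighbour pairs, 71.0%, 54.8% and 53.3% did not overlap N2, in either direction, in these comparisons, so the histone pairs' shares give no result of their own. An exact permutation test of 3 against 3 libraries cannot go below p = 0.10.

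**Figure D5:**
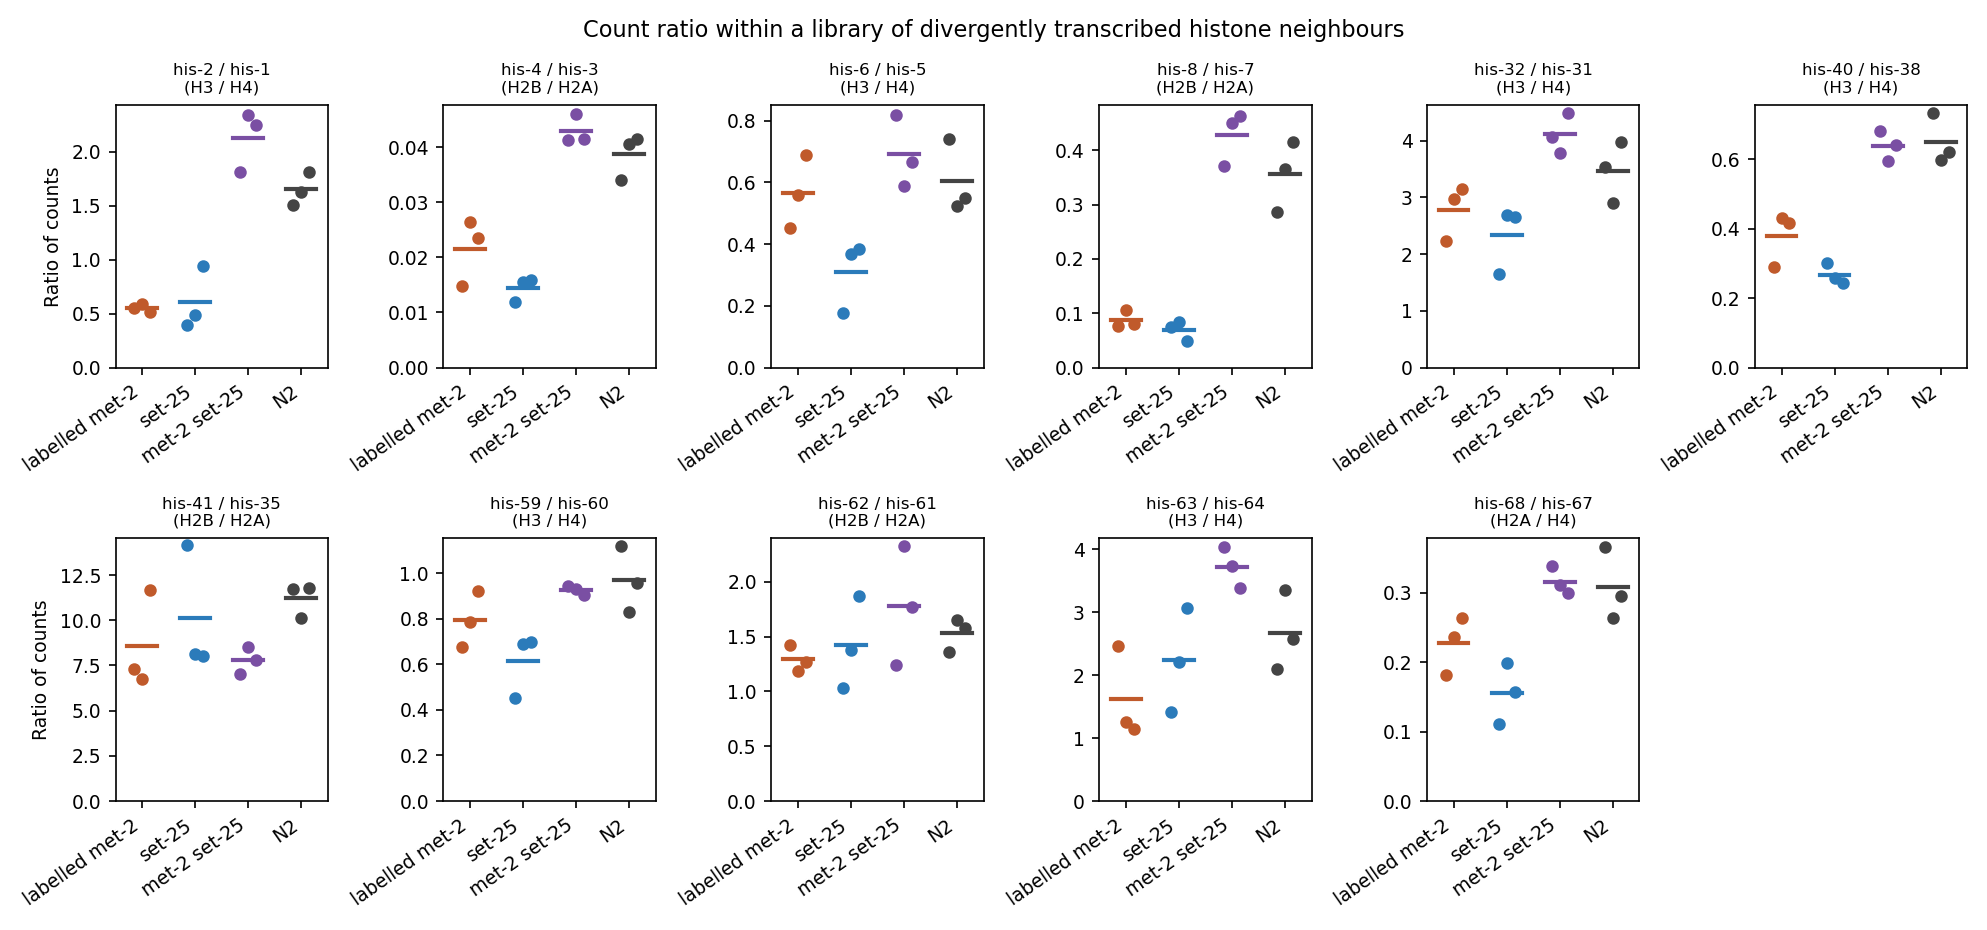
Ratio of the counts of divergently transcribed histone neighbours within each library (points) with the genotype mean (line), for the 11 pairs in which both genes were tested; each panel has its own axis. The ratio of his-2 to his-1 is 0.517 to 0.588 in the libraries labelled met-2 against 1.51 to 1.82 in N2.

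his-17 (K06C4.5, chromosome V, 8897582 to 8897992), left out by the rule, lies beside his-18 and has an annotated coding length of 411 bases, that of most H3 genes. It averaged 3.39 ± 0.710 CPM in the libraries labelled met-2, 2.94 ± 0.367 CPM in set-25, 15.9 ± 1.39 CPM in the double mutant and 27.0 ± 9.98 CPM in N2. Its log2 change was -2.99 (SE 0.33), -3.20 (SE 0.31) and -0.77 (SE 0.30) in the libraries labelled met-2, in set-25 and in the double mutant, of which the first and the second passed the threshold.

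Other genes of histone supply were counted as a list of 36, of which 35 were tested. In the libraries labelled met-2, 25 of 35 fell and 0 rose (median log2 change -0.61; none rose at an unadjusted p under 0.05 or with DESeq2), in set-25 13 fell and 1 rose (median -0.28), and in the double mutant edgeR called 0, with 9 lower and 1 higher at an unadjusted p under 0.05 and 1 higher with DESeq2, hil-7, named after its values were seen (median -0.14). Of all tested genes 29.6% fell and 35.2% rose in the libraries labelled met-2, and 21.6% fell and 24.2% rose in set-25. In the double mutant 3.34% of them fell and 8.7% rose. Of the other histone genes, 9 of 10 fell in the libraries labelled met-2 and 6 of 10 in set-25. htz-1, which encodes the variant H2A.Z, stood at 520.1, 530 and 521 CPM in the libraries labelled met-2, at 902, 696 and 576 CPM in set-25, at 2191, 2430 and 2435 CPM in the double mutant and at 2460, 2502 and 2711 CPM in N2. For htz-1 the log2 change in the libraries labelled met-2 was -2.29 (SE 0.04, adjusted p = 1.01e-06), that in set-25 -1.82 (SE 0.19, adjusted p = 4.38e-06) and that in the double mutant -0.12 (SE 0.07, adjusted p = 0.567). Among H1-like genes, hil-2, hil-3, hil-4 and hil-5 fell in both of these groups as well, with log2 changes of -2.19 to -1.53 in the libraries labelled met-2, against -2.33 to -1.52 for set-25.

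The list also held genes that act on histone mRNA and protein, and genes of S phase. cdl-1, which encodes the worm stem-loop binding protein of histone mRNA, averaged 597 ± 46.8 CPM in the libraries labelled met-2, 680 ± 93.8 CPM in set-25, 994 ± 47.6 CPM in the double mutant and 1054 ± 98.0 CPM in N2, with log2 changes of -0.82 (SE 0.10, adjusted p = 0.000126), -0.63 (SE 0.14, adjusted p = 0.00137) and -0.08 (SE 0.09, adjusted p = 0.638). Among 15 histone chaperones and deposition factors, 7 fell in the libraries labelled met-2, where 29.6% of all tested genes did. In set-25 1 fell, chaf-2, a subunit of chromatin assembly factor 1 (log2 change -0.73, adjusted p = 0.000785), and 1 rose, hmg-4, a subunit of the FACT complex (0.37, adjusted p = 0.0109). Of all tested genes 21.6% fell and 24.2% rose in set-25. Of 8 genes of S phase, 7 fell in the libraries labelled met-2 and 5 in set-25, among them pcn-1, which encodes the replication clamp PCNA, at 213 ± 40.0 CPM in the libraries labelled met-2, 250.4 ± 31.0 CPM in set-25, 650.2 ± 43.7 CPM in the double mutant and 818 ± 108 CPM in N2.

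In the double mutant the call of the 4 histone genes his-37, his-41, his-59 and his-71 rested on all 6 libraries, and none was called when any 1 of them was left out. With the double mutant and N2 alone in the fit, in which 13073 genes passed the filter, 19 of 33 members were lower, where 22.8% of all tested genes were. his-32 and his-68 were among these members.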

How the data were processed

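Per the labels, total RNA of early embryos was depleted of ribosomal RNA. Libraries were made with an mRNA kit, and the sources used here do not say whether poly(A) RNA was selected, which bears on stem-loop histone mRNA. For aligner, genome build, counter and strand setting, those sources give nothing. The authors deposited raw counts per gene, with no scaling, and a width per gene in other units. Column names gave the genotype.

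All 27904 genes were fitted in edgeR 4.0.16 (R 4.3.3) by quasi-likelihood, with TMM scaling, its low-count filter by genotype and all 12 libraries. Tests were two-sided and Benjamini-Hochberg adjusted over 14260 genes, with a threshold of 0.05. The SE is that of log2 CPM with a prior count of 2. It was taken from the groups compared alone, while the p-values rest on a spread per gene shared by all 12 libraries. A small SE can therefore stand beside a large adjusted p. Level per kilobase used the deposited width for single-exon genes and exon length otherwise. Symbols came from RefSeq WBcel235 by sequence name and positions from Ensembl WBcel235. Classes follow histone nomenclature, checked against coding length.

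Members and lists were chosen with earlier results of these data known. Named were variant and linker genes, the 3 core genes per class with the highest CPM, and the 3 highest and 3 lowest log2 changes per comparison with N2 among called members. From the list of other genes, up to 6 per comparison with the largest called changes were named, and chaf-2, hmg-4 and cdl-1 were added after their values were seen. The neighbour ratios (at least 10 counts per library) were added after the data were seen. Library totals, no filter, TMM without histone genes, DESeq2 1.42.0, thinning to 16929810 counts, fits of 2 genotypes, a block on the column letter and leaving out each library were tried. The fit was tried on simulated counts, where it missed part of the planted changes, and more of the smaller ones. The pass mark of that trial was lowered after it was missed. A member that was not called is therefore not shown to be unchanged.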

Additional observations from a re-analysis of the deposited data

Results flagged for a closer look

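The interaction passed the threshold in 23 of 34 histone genes, all positive, where it did so in 64.0% of all tested genes, 27.7% with a positive value. The share called in either direction thus gives no result of its own. Most maternal and early zygotic genes were called positive as well, and depth, batch and embryo stage cannot be told apart from this term. In these 23 genes the difference between the double mutant and the libraries labelled met-2 was not the same as that between set-25 and N2. The log2 interaction was 3.34 for the linker gene his-24. Among H3 genes it was 3.48 for his-72, 2.69 for his-73, 5.11 for his-74, 2.41 for his-59, 2.65 for his-32 and 3.05 for his-63. Among H2A genes it was 4.56 for his-68 and 3.86 for his-61, and among H2B genes 4.55 for his-62, 3.04 for his-4 and 5.15 for his-48. Among H4 genes it was 3.46 for his-18, 2.97 for his-67 and 1.44 for his-60. Each of these 15 genes passed in all 18 alternative settings in which the interaction was fitted. Groups of 3 libraries were too small for a test of single outlying libraries.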

How the results depend on the processing

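The columns are lettered a to c in each genotype, and no label says that a letter marks a shared batch or day. Of 18 same-letter pairs of libraries from different genotypes, 4 had a correlation of deviations from the genotype means over 0.1 (range -0.647 to 0.297), so the letters were not taken as pairs. With the letter as a replicate block, added after the data were seen, 28 genes fell in the libraries labelled met-2, 20 fell and 0 rose in set-25 and 0 fell in the double mutant, all against N2, and 24 were called for the interaction. The counts of lower genes in the libraries labelled met-2 (25 to 28 with 1 library left out) and in set-25 (16 to 26) against N2, and that of the interaction (22 to 27), stayed within 1.5 times under every setting run. The count of 1 higher gene in set-25 became 0 with no filter and with only the 2 genotypes fitted, and was 0 to 1 with a library left out. The 4 lower genes in the double mutant against N2 became 2 with library totals, 2 with no filter, 0 with thinning and 19 with only the 2 genotypes fitted, and 0 whichever library was left out. The 1 lower gene of the double mutant against the libraries labelled met-2 became 2 with no filter and 2 with DESeq2, which also took in members below the filter (1 of the 34 tested with DESeq2), and 0 whichever library was left out. The 2 lower genes of the double mutant against set-25 became 5 with library totals and 1 with only the 2 genotypes fitted, and 1 to 5 with a library left out. The 12 genes lower in the libraries labelled met-2 than in set-25 became 0 with only the 2 genotypes fitted, 0 without library b of the libraries labelled met-2 and 21 without library c of set-25. The cause was not tested, other than that left-out libraries leave fewer samples.

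Signs turned only for log2 changes that had missed the threshold. With library totals, the log2 changes in set-25 became 0.19 for his-35, 0.073 for his-71, 0.16 for his-3 and 0.039 for his-41, and with thinning that of his-35 became 0.00024. With a library left out they ranged in set-25 from -0.16 to 0.058 for his-35, -0.99 to 0.13 for his-69, -0.39 to 0.22 for his-3 and -0.56 to 0.049 for his-41, with the positive values without libraries b or c of set-25. In the libraries labelled met-2 his-69 ranged from -0.66 to 0.11, positive without library a, and in the double mutant his-18 ranged from -0.35 to 0.31, positive without library a of the double mutant or library b of N2. With 3 libraries per genotype and lower depth in the libraries labelled met-2 and in set-25, small changes of scarce genes such as his-69 and his-70 were not detectable.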
